A study of Mus musculus with 12 samples.

Results

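The core autophagy machinery was followed as 41 mouse genes, taken by gene symbol from a list of the proteins known to build an autophagosome, load it with cargo and deliver it to the lysosome. All 41 were found among the 15002 genes measured, and all 41 had enough reads to be tested. RNA-seq had been run on IEC4.1 cells, a cultured line labelled as mouse intestinal epithelium, in 4 conditions of 3 libraries each. The cells were given scrambled siRNA (siR_Ctrl), or 3 pooled siRNAs, each at 40 nM, aimed at the long noncoding RNA Nostrill (siR_Nostrill), for 24 h. They were then either left alone or given IFN-γ (siR_Ctrl + IFN-γ and siR_Nostrill + IFN-γ), at 1 ng/ml for 4 h. The labels state a time of 24 h in all 12 libraries, so the hours of IFN-γ rest on the methods text. The question put to the RNA here was whether IFN-γ, or the loss of Nostrill, changed the transcripts of the autophagy machinery. Nostrill itself was not analysed here, because the genes measured were all mRNA genes, so the knockdown was not checked in these libraries.

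Autophagy encloses cytoplasm or intracellular microbes in a double membrane, which then fuses with lysosomes. A kinase complex starts the process, a lipid kinase complex marks the membrane, and lipid-transfer proteins make it grow. Ubiquitin-like enzymes then join ATG8 proteins to the membrane lipid, where cargo receptors bind them. IFN-γ is known to engage autophagy proteins in epithelial defense against intracellular pathogens, and much of that control acts on the proteins rather than on their transcripts.

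Between 17824306 and 19093204 reads fell on genes per library. The label of the cells was checked against marker genes. Of 7 epithelial markers, Krt8, Krt18 and Krt19 were measured and summed to 1.17 to 3.05 FPKM (fragments per kilobase of transcript, scaled to library size), while Epcam, Cdh1, Cldn4 and Ocln were not analysed here. The 6 fibroblast markers summed to 379.9 to 674 FPKM, with Col1a1 at 176 to 315 FPKM. The RNA therefore went against the epithelial label, and the cells are called by their name, IEC4.1. Summed fibroblast markers overlapped between all 4 groups, at 454 to 674 FPKM in siR_Ctrl, 379.9 to 597 in siR_Ctrl + IFN-γ, 421 to 605 in siR_Nostrill and 438 to 507 in siR_Nostrill + IFN-γ, and their part in the results below was not tested.

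Some libraries stood apart by transcript length. In siR_Ctrl replicate 1, the median of the 10 longest members (4325 to 8915 nt) lay 0.40 above the other siR_Ctrl libraries on the log2 scale, and that of the 10 shortest (747 to 1779 nt) lay 0.37 below. An opposite split separated siR_Ctrl + IFN-γ replicates 2 and 3, with the longest members at -0.27 and 0.31. In siR_Nostrill replicate 3 the longest members lay 0.24 above the other libraries of the group. Members with short transcripts, which include 4 of the 5 ATG8 genes, and members with long transcripts, which include Rb1cc1 and Epg5, therefore varied in opposite directions between libraries of one group. Results are given with this trend left in, and for members also with it removed where that changed a call.

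The members ranged from low to high expression. In siR_Ctrl cells their mean FPKM ran from 1.65 to 220.2 with a median of 14.6, against a median of 11.9 over the 11900 genes tested. Of the 41, 25 lay above 10 FPKM and the other 16 between 1 and 10. At the top stood Sqstm1, which encodes the cargo receptor p62, at 220.2 ± 9.83 FPKM (SD, n = 3). Next came the ATG8 genes Gabarap at 194 ± 36.0 and Gabarapl2 at 143 ± 20.1. Atg101, which stabilizes ATG13 in the initiation complex, followed at 62.9 ± 12.7, and Vmp1, an endoplasmic reticulum lipid scramblase, at 52.7 ± 1.94. Gabarap overlapped both Sqstm1 and Gabarapl2 in its libraries, and Vmp1 overlapped both Atg101 and the next member, Becn1. These neighbours could therefore not be ordered beyond their spread. The lowest members were Atg4c, an ATG4 protease, at 3.45 ± 0.945, and Atg14, which directs the lipid kinase to autophagosomes, at 2.62 ± 0.152. Below them lay Atg10, the E2-like enzyme for ATG12, at 2.23 ± 0.369, then Epg5, a tether for fusion with lysosomes, at 1.78 ± 0.448. The cargo receptor Optn had the lowest mean at 1.65 ± 0.0208, but Epg5 overlapped it, at 2.29, 1.44 and 1.62 against 1.67, 1.64 and 1.63, so these were not ordered beyond their spread. Atg4c and Atg14, Atg14 and Atg10, and Atg10 and Epg5 overlapped as well. Atg10 rested on the fewest reads of any member, with as few as 45 in a library. The span from the lowest to the highest of the 12 libraries was 2.35-fold for Atg4c, 2.3-fold for Rb1cc1, 2.14-fold for Epg5 and 2.01-fold for Atg10.

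**Figure D1:**
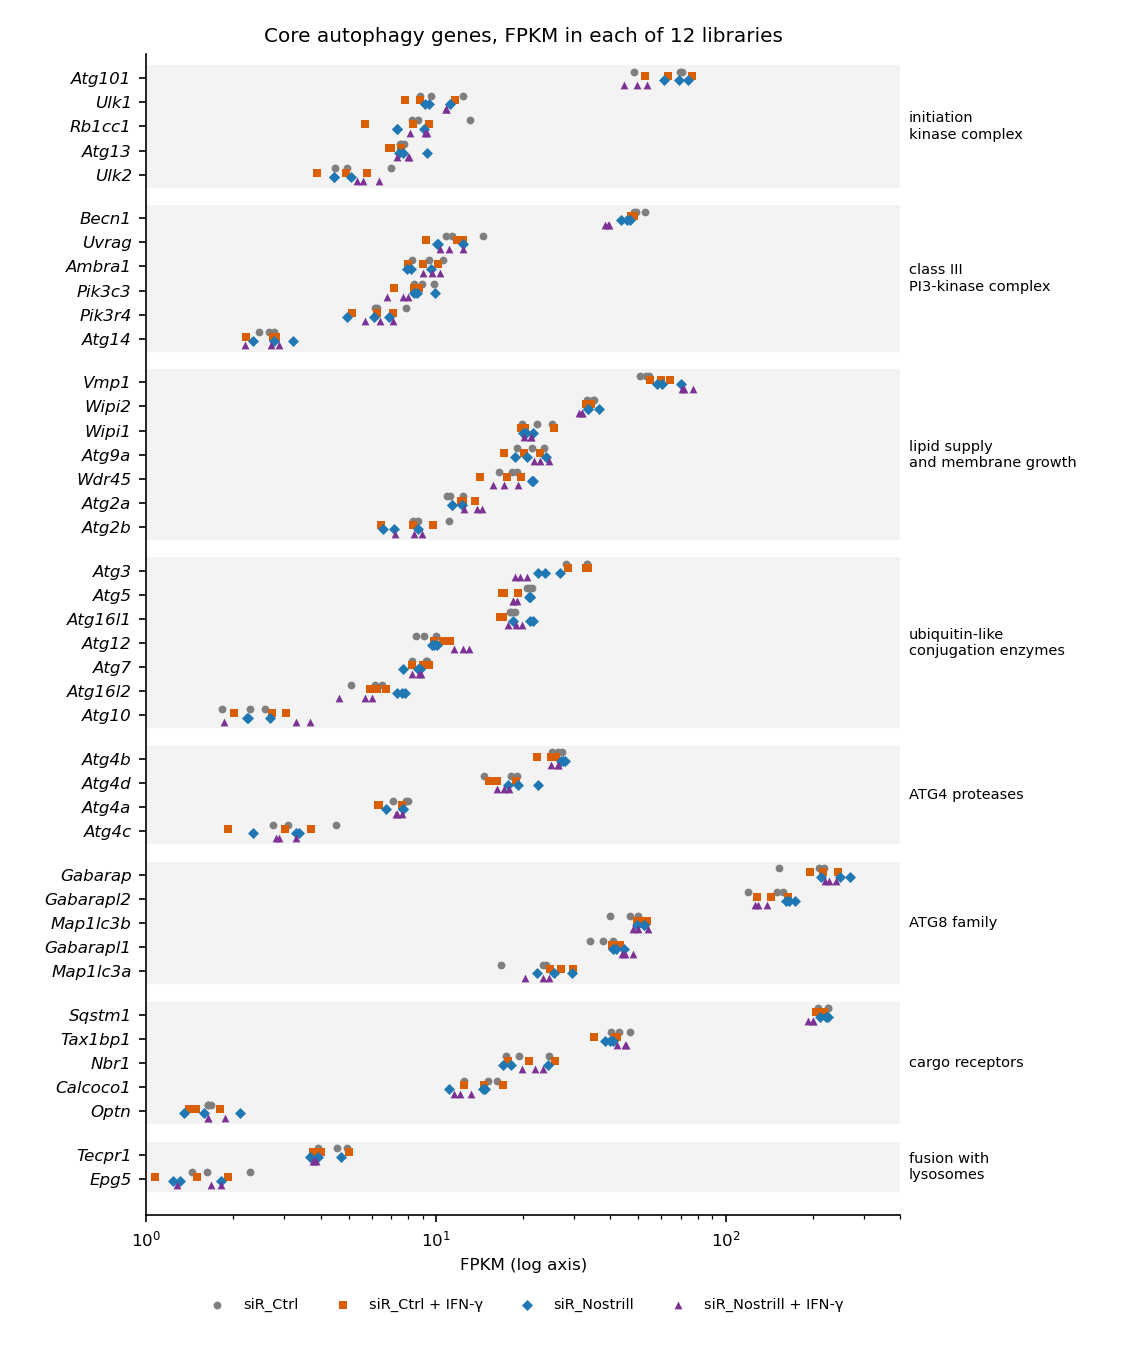
FPKM of the 41 core autophagy genes (log axis), 1 point per library, grouped by role and ordered within a role by the siR_Ctrl mean. Sqstm1, Gabarap and Gabarapl2 lie above 100 in every library, and the 4 conditions overlap for most genes.

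The ATG8 genes encode the proteins that decorate the autophagosome. In siR_Ctrl cells Gabarap made up 43.8% ± 1.60 (SD, n = 3) of the summed ATG8 FPKM and Gabarapl2 32.4% ± 0.711. The LC3 genes were minor, with Map1lc3b at 10.4% ± 0.673 and Map1lc3a at 4.83% ± 0.21, while Gabarapl1 gave 8.58% ± 0.78. This order was kept in each condition. The Gabarapl2 share was lowest in siR_Nostrill + IFN-γ cells at 27.4% ± 0.217, where the Gabarap share was 47.8% ± 0.0412.

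The study measured LC3-II protein by Western blot, also with Nostrill knockdown, and LC3II by qRT-PCR. It listed primers named LC3-II, Beclin1 and P62, and these show which members such primers match. The primers, from the study's supplementary table, are printed 5′ to 3′ in lower case.
LC3-II forward: tctacgcctcccaagaaa
LC3-II reverse: ggtgtcacatctctgcctaat
Beclin1 forward: cctctgaaactggacacga
Beclin1 reverse: aaatggctcctctcctgag
P62 forward: ttcggaagtcagcaaacc
P62 reverse: aatgtgtccagtcatcgtctc
By exact match to GENCODE vM21 transcripts, the LC3-II pair lay on 3 transcripts of Map1lc3a, with an amplicon of 148 nt, and on none of Map1lc3b. Its forward primer lay in coding sequence and its reverse primer in the 3′UTR. The Beclin1 pair matched Becn1 (138 nt) and the P62 pair matched Sqstm1 (152 nt), both within coding sequence.

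IFN-γ in siR_Ctrl cells left the autophagy genes without a change that passed the test. The quasi-likelihood test of edgeR, with p-values adjusted by Benjamini-Hochberg over all genes, called 0 of 41 members, beside 5.45% of the 11900 genes tested. At an unadjusted p under 0.05 it gave 1 member, beside 14.6% of all genes, and DESeq2 called 0, beside 6.33% of the genes it tested. Since these are bulk RNA libraries, fewer cells of a kind and less RNA per cell cannot be told apart. The p-values here and below rest on the spread between libraries within groups, pooled over all 4 groups unless only the groups compared were fitted. The study describes the 3 libraries of a group as biological triplicates. The median absolute log2 fold change was 0.08 for the members and 0.15 for all genes. By contrast Irf1, a transcription factor induced by IFN-γ, went from 50.9 ± 4.05 to 578 ± 15.6 FPKM (SD, n = 3).

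Among the members, Atg12, the ubiquitin-like protein joined to ATG5, had the smallest p. Its FPKM was 10.03, 8.52 and 9.11 in siR_Ctrl and 11.2, 9.86 and 10.6 in siR_Ctrl + IFN-γ libraries. The highest siR_Ctrl library overlapped the lowest IFN-γ library on this scale, although the groups lay apart in normalised counts scaled to library size (CPM). Its log2 fold change was 0.26 ± 0.08 (SE) with adjusted p = 0.106 in edgeR. With the length trend removed, it was 0.25 with adjusted p = 0.0358.

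The LC3 genes were described next because of their use as autophagy markers. Map1lc3a was measured at 16.8, 23.4 and 24.0 FPKM in siR_Ctrl and at 27.1, 29.8 and 24.7 in siR_Ctrl + IFN-γ libraries. In FPKM every IFN-γ library lay above every siR_Ctrl library, while the groups overlapped in CPM, with the low value in siR_Ctrl replicate 1, the library that stood apart by length. The log2 fold change was 0.41 (95% interval -0.01 to 0.83, edgeR adjusted p = 0.358), and 0.27 with the length trend removed (adjusted p = 0.0786). With the replicate number added as a block to that fit, Map1lc3a passed (0.27, edgeR adjusted p = 0.0404). Map1lc3b gave 39.8, 46.7 and 49.9 FPKM against 51.3, 53.4 and 49.5, so that the groups overlapped. Its log2 fold change was 0.25 (-0.01 to 0.51, edgeR adjusted p = 0.371). All 5 ATG8 genes had a positive log2 fold change, from 0.09 to 0.41, and none passed the test with the length trend left in. With the length trend removed Gabarapl2 was at -0.08 and the other 4 at 0.11 to 0.27.

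The remaining roles showed small values of either sign. In the lipid kinase complex, Becn1 had a log2 fold change of -0.01 (-0.21 to 0.20) and the 6 members ran from -0.08 to 0.04. In the group of lipid supply and membrane growth, Vmp1 gave 50.6, 54.5 and 53.0 FPKM against 64.2, 59.9 and 54.7. These groups lay apart in FPKM and overlapped in CPM, with a log2 fold change of 0.25 and an edgeR adjusted p of 0.365. Sqstm1 had a log2 fold change of 0.01 (-0.19 to 0.21), the 5 cargo receptors ran from -0.06 to 0.14, the 4 ATG4 proteases from -0.21 to 0.01, and the 5 initiation genes from -0.28 to 0.10. In normalised CPM the groups did not overlap for 3 members that were higher, beside 9.57% of all genes, and for 1 that was lower, beside 8.18%. The share of all genes apart in either direction was 17.8%. Removal of the length trend brought the members called to 3 (Atg12, Atg2a and Nbr1), beside 11.1% of all genes. Without siR_Ctrl replicate 1 the count stayed at 0.

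In siR_Nostrill cells, IFN-γ lowered 1 member. edgeR called Atg16l2, a paralog of the scaffold ATG16L1, and no other of the 41, beside 6.78% of all genes tested, of which lower genes made up 1.55% of those tested. Atg16l2 (gene ID 73683, chr7:101286325-101302267, GRCm38.p6) was measured at 7.34, 7.62 and 7.85 FPKM in siR_Nostrill and at 4.64, 6.04 and 5.68 in siR_Nostrill + IFN-γ libraries. All IFN-γ libraries lay below all others of this siRNA, with a log2 fold change of -0.49 ± 0.13 (SE), which is 28.8% fewer reads (edgeR adjusted p = 0.0425). The call was narrow. It was kept without siR_Ctrl replicate 1 or without siR_Ctrl + IFN-γ replicate 2 or 3, and lost without any 1 of the other 9 libraries, over an adjusted p of 0.0289 to 0.156. It was also lost with no filter on low counts (0.0516) and in limma over all genes (0.0556). DESeq2 gave an adjusted p of 0.00671, and with the length trend removed the log2 fold change was -0.45 (adjusted p = 0.00898).

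In siR_Ctrl cells, whose libraries are separate from these, the log2 fold change of Atg16l2 with IFN-γ was 0.12 (-0.16 to 0.40). The difference between the responses of the 2 siRNAs was -0.61 ± 0.18 (SE), and it did not pass the edgeR interaction test (adjusted p = 0.430). A call in one siRNA and not in the other was therefore not shown to be a difference between them.

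At an unadjusted p under 0.05, edgeR gave 9 members in siR_Nostrill cells, beside 21.9% of all genes. Of these 2 were higher, beside 11.7% of all genes, and 7 lower, beside 10.2%. Atg12 was again higher. It was measured at 10.1, 9.84 and 9.71 FPKM in siR_Nostrill and at 11.5, 13 and 12.4 in siR_Nostrill + IFN-γ libraries, and the groups lay apart. Its log2 fold change was 0.27 ± 0.08 (edgeR adjusted p = 0.0699, DESeq2 adjusted p = 0.0346, and 0.00645 with the length trend removed). Pik3c3, the catalytic subunit of the lipid kinase complex, gave 8.41, 8.61 and 9.93 FPKM against 6.78, 7.70 and 7.99. The groups lay apart, with a log2 fold change of -0.27 and an edgeR adjusted p of 0.124. Becn1, its regulatory partner, gave 43.6, 46.8 and 45.6 FPKM against 38.4, 39.3 and 39.5, also apart, with a log2 fold change of -0.26 (edgeR adjusted p = 0.139).

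Over the 41 members, 16 had a positive and 25 a negative value, and the median absolute log2 fold change was 0.14 against 0.21 for all genes. In normalised CPM, 3 members were apart and higher, beside 18.5% of all genes, and 9 apart and lower, beside 16.9%, with 35.4% of all genes apart in either direction. The ATG8 genes had negative values except 1, from -0.36 to 0.08, with Map1lc3a at -0.21 and Map1lc3b at -0.05. Both of these values went to or above 0 when the length trend was removed (0.05 for Map1lc3a), and Gabarap went from -0.11 to 0.13. Sqstm1 had a log2 fold change of -0.17 (-0.37 to 0.03). DESeq2 called 3 members (Atg16l2, Atg12 and Wipi2), beside 10.5% of the genes it tested. With the length trend removed 6 were called, beside 19.0% of all genes, namely Atg16l2, Atg12, Pik3c3, Atg3, Atg101 and Gabarapl1.

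The siRNAs against Nostrill were then compared with the control siRNA. An siRNA can lower other transcripts through its seed (bases 2 to 8 of the guide strand). The guides are therefore shown with the seed in capitals, 5′ to 3′. Each was derived as the reverse complement of the sense strand listed in the study's supplementary table.
Nostrill-1 guide: aUUAAUGCuucuucccagg
Nostrill-2 guide: aUUUGUGUguuccuggugg
Nostrill-3 guide: aUUAGAACgacuuauaggc
The 7 bases that pair with a seed were searched in the 3′UTRs of GENCODE vM21 transcripts. Such a match to at least 1 guide was present in 12 of 41 members (29.3%), beside 32.0% of the 11588 tested genes with a 3′UTR. A match in any annotated transcript was counted, and the forms expressed in these cells were not determined. The Atg16l2 site and the Becn1 site for Nostrill-2 lie in 3′UTRs of 4526 and 2861 nt. The effective lengths of these genes here were 2249 and 1779 nt. The Becn1 site for Nostrill-1 lies in another 3′UTR, of 287 nt. For the members on which the comparison turned, the match is in capitals.
Atg3 with Nostrill-1: ttatatgtttatGCATTAAataaa
Becn1 with Nostrill-1: ctgttcttttcaGCATTAAttttt
Becn1 with Nostrill-2: actcgtgcgcacACACAAAtactt
Atg16l2 with Nostrill-3: gtgatggagcacGTTCTAAagtga
The Nostrill-1 match was also present in Vmp1, Wdr45, Gabarapl1 and Sqstm1. It was in 14.6% of members and 10.3% of genes. The Nostrill-2 match was in 14.6% of members and 19.1% of genes, and the Nostrill-3 match in 7.32% and 11.2%.

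Without IFN-γ, the Nostrill siRNAs left the members without a change that passed the test. edgeR called 0 of 41, beside 0.218% of the genes tested, and DESeq2 called 0, beside 2.56%. At an unadjusted p under 0.05 there were 3 members, beside 13.8% of all genes. The smallest p belonged to Atg3, the E2-like enzyme that joins ATG8 proteins to phosphatidylethanolamine (gene ID 67841, chr16:45158829-45188538, GRCm38.p6). It was measured at 28.1, 33.2 and 33.2 FPKM in siR_Ctrl and at 22.5, 26.8 and 23.8 in siR_Nostrill libraries. All siR_Nostrill libraries lay below all siR_Ctrl libraries in FPKM, although the groups overlapped in normalised CPM. The log2 fold change was -0.34 ± 0.13 (SE, edgeR adjusted p = 0.313), and with the length trend removed -0.44 (adjusted p = 0.00524), the only member then called beside 3.39% of all genes.

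Atg16l2 was higher in siR_Nostrill (7.34 to 7.85 FPKM) than in siR_Ctrl libraries (5.08 to 6.50), with the groups apart, a log2 fold change of 0.33 and an edgeR adjusted p of 0.313. Vmp1 gave 70.1, 60.3 and 57.8 FPKM in siR_Nostrill against 50.6, 54.5 and 53.0 in siR_Ctrl, apart in FPKM and overlapping in CPM, with a log2 fold change of 0.29 and an edgeR adjusted p of 0.345. Map1lc3a had a log2 fold change of 0.31 (-0.11 to 0.73), Map1lc3b 0.21 (-0.05 to 0.46), Becn1 -0.10 (-0.31 to 0.10) and Sqstm1 0.02 (-0.17 to 0.22). For Becn1 the groups lay apart in FPKM and overlapped in CPM. With the length trend removed Becn1 was at -0.21 (edgeR adjusted p = 0.0579). In normalised CPM, 4 members lay apart and higher, beside 8.7% of all genes, and 1 apart and lower, beside 9.27%, with 18.0% of all genes apart in either direction. The 5 ATG8 genes had positive values, from 0.20 to 0.36, and none was called. These values moved with length as described above. The ATG8 gene Gabarap went from 0.36 to 0.11 with the trend removed, Map1lc3a went from 0.31 to 0.03, and Gabarapl2 changed sign from 0.25 to -0.03.

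With IFN-γ, the Nostrill siRNAs lowered Atg3. It was measured at 33.0, 33.4 and 28.5 FPKM in siR_Ctrl + IFN-γ and at 19.5, 18.7 and 20.7 in siR_Nostrill + IFN-γ libraries, or 31.6 ± 2.73 against 19.6 ± 0.994 (SD, n = 3). The groups did not overlap, and the siR_Nostrill + IFN-γ libraries were the lowest 3 of all 12. The log2 fold change was -0.75 ± 0.13 (SE, 95% interval -1.04 to -0.46), which is 40.6% fewer reads, with edgeR adjusted p = 0.0389. Atg3 was the only 1 of 41 members called, beside 0.429% of all genes tested and 0.244% called lower. DESeq2, which called Atg3 and Becn1 beside 5.46% of the genes it tested, gave Atg3 an adjusted p of 3.22e-05, and with the length trend removed the value was -0.71 (adjusted p = 0.000281).

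The size of the Atg3 difference kept its sign in each alternative, but the edgeR call depended on single libraries. With 1 library left out at a time, the log2 fold change ranged from -0.85 to -0.66. The adjusted p ranged from 0.0261 to 0.198, and the call was kept without siR_Ctrl replicate 1 or without siR_Ctrl + IFN-γ replicate 3 and lost without any 1 of the other 10. It was also lost with only these groups in the fit (adjusted p = 0.161) and with the replicate number as a block (0.0532). The difference between the IFN-γ responses was -0.41 (-0.81 to 0.00) and did not pass the interaction test (edgeR adjusted p = 0.430).

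Becn1 (gene ID 56208, chr11:101288258-101302286, GRCm38.p6), which encodes Beclin 1, was measured at 48.1, 47.8 and 47.2 FPKM in siR_Ctrl + IFN-γ and at 38.4, 39.3 and 39.5 in siR_Nostrill + IFN-γ libraries. The groups lay apart and varied little, at 47.7 ± 0.446 and 39.1 ± 0.586 (SD, n = 3). The log2 fold change was -0.36 ± 0.09 (SE). It did not pass edgeR's test (adjusted p = 0.110) and it passed in DESeq2 (adjusted p = 0.0105) and with the length trend removed (-0.32, adjusted p = 0.00378). Becn1 and Atg3 both hold a match to the Nostrill-1 seed in an annotated transcript. Of the 6 members with that match, 4 had a negative value and their median was -0.10, against 16 of the 35 without it and a median of 0.02. These 6 include Atg3 and Becn1, whose values were known when the comparison was made. Without IFN-γ, 2 of the same 6 were negative, with a median of 0.11 against 0.01. With IFN-γ, 3 of the 6 members with a Nostrill-2 match were negative, with a median of -0.01, and 2 of the 3 with a Nostrill-3 match, with a median of -0.04. The part of seed pairing in these values was not tested.

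**Figure D2:**
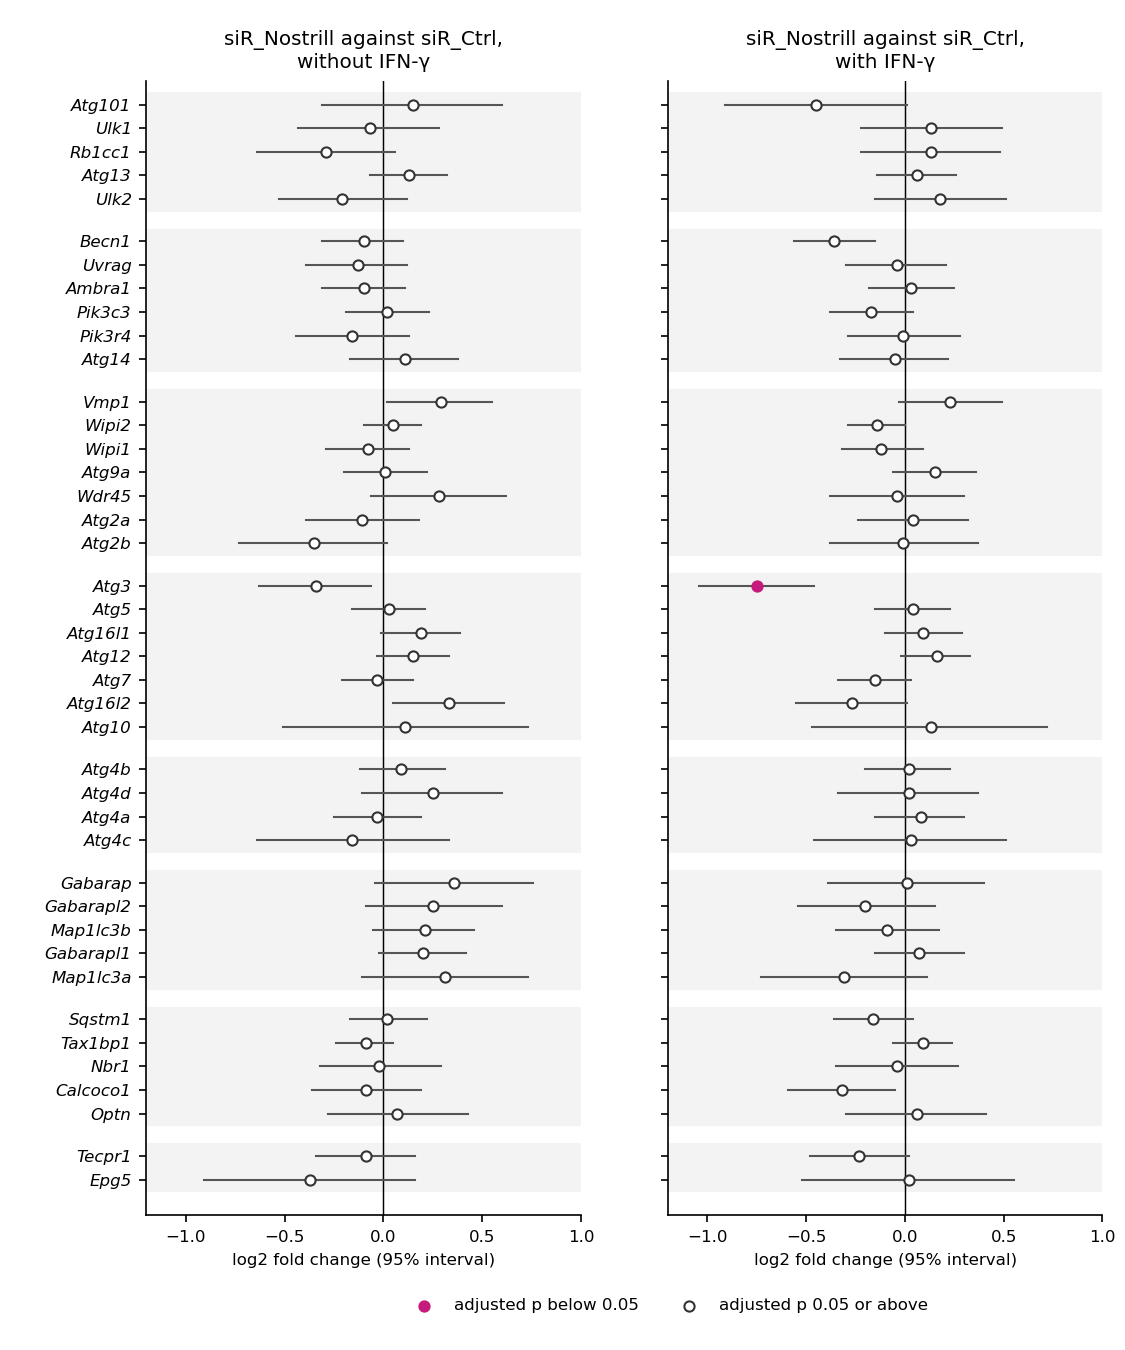
log2 fold change (points) and 95% interval (lines) of each member between siR_Nostrill and siR_Ctrl cells, without and with IFN-γ, from edgeR. The filled point is Atg3 with IFN-γ at -0.75, the only call in either panel.

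Calcoco1, an endoplasmic reticulum cargo receptor, gave 14.7, 12.5 and 17.0 FPKM against 11.5, 13.2 and 12.1 with the Nostrill siRNAs and IFN-γ. These groups overlapped in FPKM and lay apart in CPM, with a log2 fold change of -0.32 and an edgeR adjusted p of 0.263. The LC3 genes and Sqstm1 gave values nearer 0 than Becn1, none of which passed the test. Sqstm1 was at 205 to 218 FPKM in siR_Ctrl + IFN-γ and at 193 to 201 in siR_Nostrill + IFN-γ libraries, apart in FPKM and overlapping in CPM, with a log2 fold change of -0.16 (-0.36 to 0.04). Map1lc3a gave 23.4, 20.3 and 24.6 FPKM with siR_Nostrill + IFN-γ against 24.7 to 29.8, apart in FPKM and overlapping in CPM, and its log2 fold change was -0.31 (-0.73 to 0.11, edgeR adjusted p = 0.495). Map1lc3b gave 47.9, 49.8 and 53.9 FPKM against 49.5 to 53.4, which overlapped, and its log2 fold change was -0.09 (-0.35 to 0.17).

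Over all members, 2 lay apart and higher in normalised CPM, beside 11.1% of all genes, and 6 apart and lower, beside 10.4%, with 21.4% of all genes apart in either direction. At an unadjusted p under 0.05 there were 3, all lower, beside 14.5% of all genes, or 7.67% lower. The median absolute log2 fold change was 0.09, against 0.15 for all genes. Among the conjugation enzymes besides Atg3, none passed the test. Atg16l2 had a log2 fold change of -0.27 (-0.55 to 0.01, edgeR adjusted p = 0.361), with the groups apart in CPM and overlapping in FPKM. Atg7, the E1-like enzyme acting just before ATG3, had a log2 fold change of -0.15, Atg5 0.04, Atg16l1 0.09 and Atg10 0.13. Atg12 was at 0.16 (edgeR adjusted p = 0.398), with the groups apart and higher in both FPKM and CPM. With the length trend removed, Atg3, Becn1 and Atg101 were called, beside 12.9% of all genes. Atg101 gave 63.5, 76.8 and 52.8 FPKM against 49.4, 44.6 and 53.6, which overlapped.

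**Figure D3:**
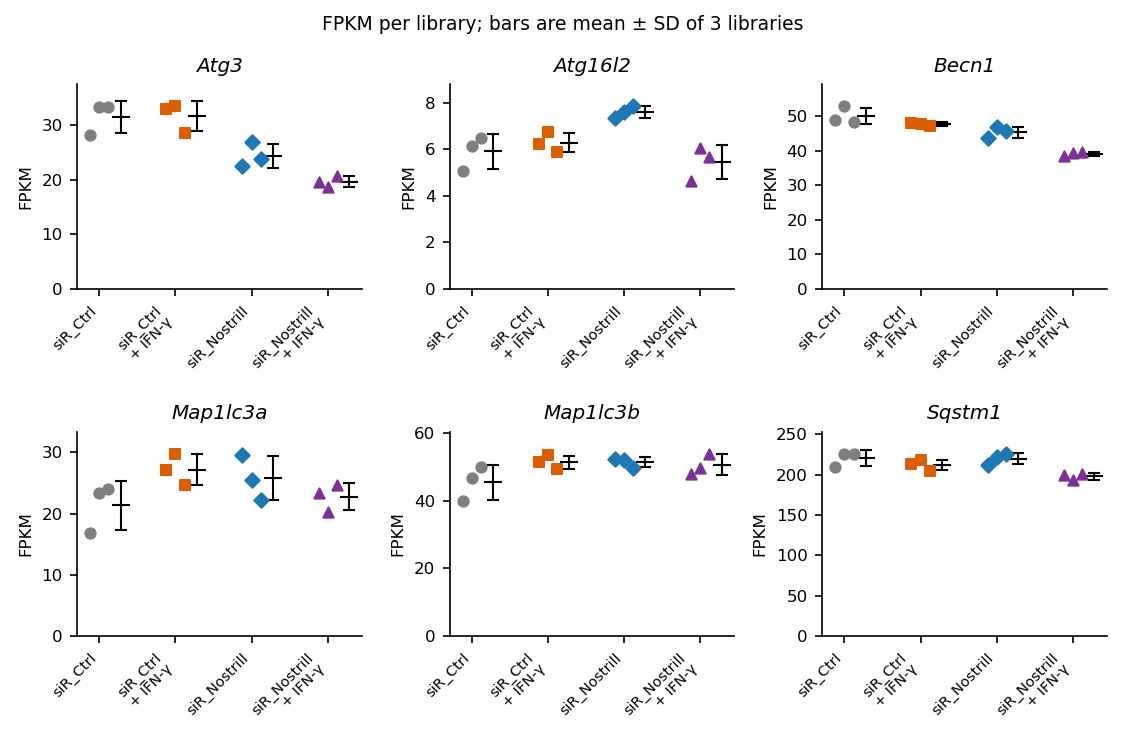
FPKM of 6 members in the 12 libraries, as points by condition with the mean ± SD of 3 libraries beside them. Atg3 and Becn1 are lowest in all 3 siR_Nostrill + IFN-γ libraries, at 18.7 to 20.7 and 38.4 to 39.5.

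Tests of the difference between the IFN-γ responses of the 2 siRNAs called 0 of 41 members in edgeR, beside 0.0% of all genes, and 0 in DESeq2, also beside 0.0%. With the length trend removed the share of all genes was 0.0% as well. At an unadjusted p under 0.05 edgeR gave 2 members, Atg16l2 and Map1lc3a, beside 10.7% of all genes. Both were lower, beside 6.01%. Map1lc3a had an interaction value of -0.62 (-1.21 to -0.02, edgeR adjusted p = 0.430), close to Atg16l2 at -0.61 and Atg101 at -0.60, which were not ordered beyond their errors. Removal of the length trend gave -0.22, -0.55 and -0.24. The 5 ATG8 genes had negative interaction values, from -0.62 to -0.13, which share the 4 groups of libraries with every comparison above. This shared sign was lost with the length trend removed, which left Gabarap at 0.02 and Gabarapl1 at 0.06.

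The length of a transcript and its log2 fold change moved together across the members. Spearman's rho over the 41 members was -0.536 for IFN-γ in siR_Ctrl cells and 0.520 in siR_Nostrill cells. For the Nostrill siRNAs it was -0.632 without and 0.320 with IFN-γ. Over all 11900 genes the same measure was -0.422, 0.480, -0.654 and 0.262. These are descriptions, since the genes share libraries and the comparisons share groups. After removal of a smooth length trend from each library the values of these comparisons ran from -0.0997 to 0.225 over the members. For the interaction rho was 0.688 over the members and 0.647 over all genes, and -0.107 over the members after removal. The part of length in the values of single members was not tested beyond this removal.

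**Figure D4:**
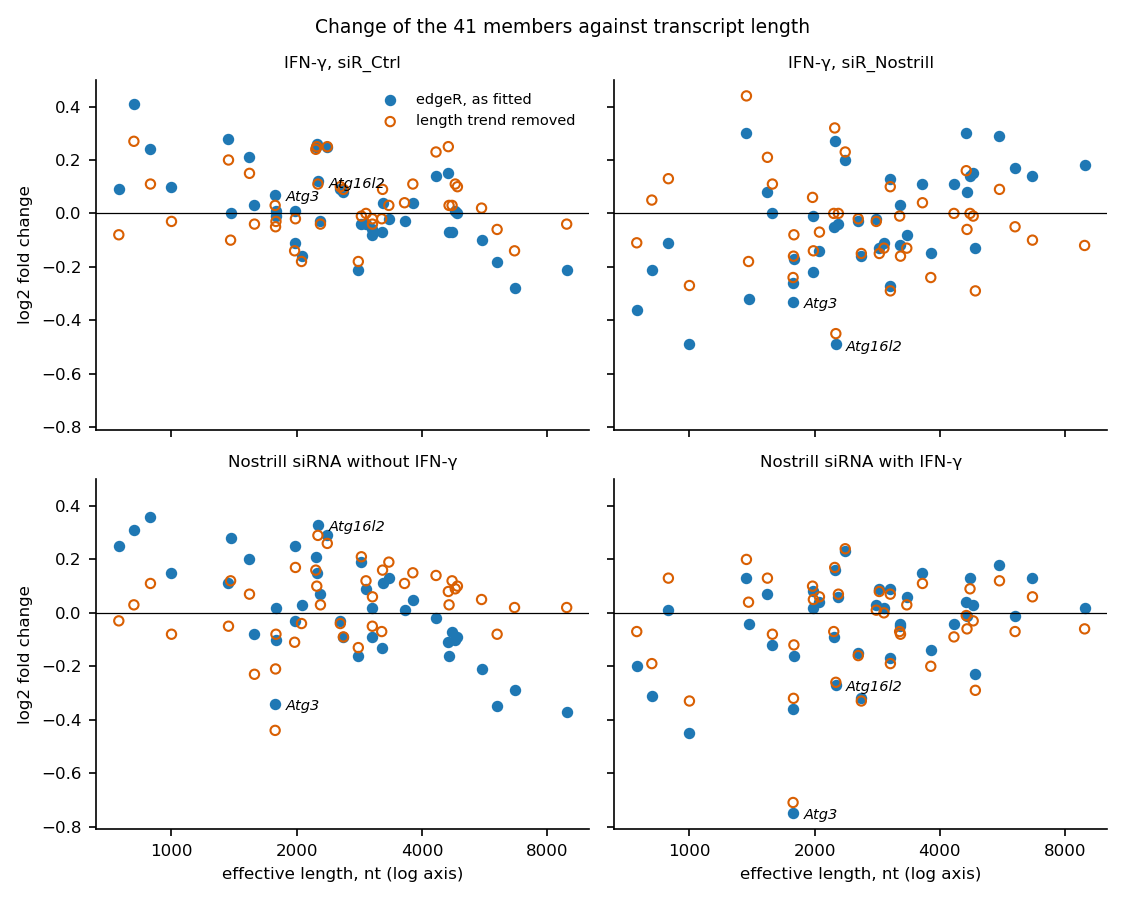
log2 fold change of the 41 members against effective transcript length (log axis) in 4 comparisons, as fitted by edgeR (filled) and with the length trend of each library removed (open). Atg3 with the Nostrill siRNAs and IFN-γ is at -0.75 and -0.71 in the 2 fits.

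Promoters of the members were read from RefSeq (GRCm38.p6, 250 bases before to 50 after the start, both strands), where 34 of the 41 had a window. The letters TTCNNNGAA of the gamma-activated site (GAS), a promoter element of IFN-γ responses, were in 4 members (11.8%) and in 8.29% of the 9521 tested genes with a window. They are shown with the match in capitals, since IFN-γ was the stimulus.
Gabarap, position -56 from the start: caacgtaatTTCCGAGAActgcagaac
Gabarapl1, position -214: gttagagcaTTCTTTGAAttaacaaat
Nbr1, position -111: agctgtgggTTCCAGGAAgactacaat
Wipi1, position -158: cccagccgaTTCTCTGAAggaggggcg
The log2 fold changes of these genes with IFN-γ in siR_Ctrl cells were 0.24, 0.21, 0.14 and 0.03. edgeR called none of them with the length trend left in, and Nbr1 with it removed (0.23, adjusted p = 0.0404). The E-box CACGTG, the core of the site bound by TFEB-family factors, was in 4 members (Atg3, Atg5, Atg7 and Atg14, 11.8%) and in 11.7% of genes. Atg3 held it at 2 positions.
Atg3, position -94: tccttttgtCACGTGtcctgggag
Atg3, position -71: gagtcgagtCACGTGaggccttag
The ISRE core motif was in 1 member, Nbr1 (2.94% against 3.84% of genes), and the antioxidant response letters TGANNNNGC were in 20 (58.8% against 47.9%). No match of one motif overlapped a match of another in a member.

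Genes around the core machinery were read from 5 further lists of 121 genes, of which 119 were tested. IFN-γ in siR_Ctrl cells raised 5 and lowered 1 of them in edgeR, beside 5.45% of all genes called, and in siR_Nostrill cells it raised 8 and lowered 0, beside 6.78%. These counts lie near the share over all genes. With the length trend removed 13 and 27 of the list genes were called, beside 11.1% and 19.0% of all genes. The list of autophagosome-lysosome fusion had 1 of 17 genes called in each, Plekhm1, an adaptor between ATG8 proteins, RAB7 and the HOPS tether. Plekhm1 went from 5.66 ± 0.746 to 12.1 ± 1.36 FPKM in siR_Ctrl and from 4.78 ± 0.585 to 11.9 ± 0.86 in siR_Nostrill cells (SD, n = 3). The log2 fold changes were 1.16 (edgeR adjusted p = 1.03e-05) and 1.30 (3.89e-06). Among 21 tested selective receptors, Lgals8, which detects damaged vesicles, rose in both (0.54 and 0.57, edgeR adjusted p = 0.00967 and 0.00627), and Nufip1, a ribosome receptor, rose in siR_Ctrl cells (0.61, adjusted p = 0.0101).

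In the list of mTORC1, AMPK and TFEB control, 2 of 30 genes were called in each siRNA, near the 5.45% and 6.78% of all genes. Foxo3, a transcription factor for autophagy genes, had log2 fold changes of 0.62 and 0.71 (edgeR adjusted p = 0.0378 and 0.0167). Its call was kept in 3 and 8 of 12 fits that each left out 1 library. Foxo1 rose in siR_Nostrill cells (0.82, adjusted p = 0.0184) and Sesn1 fell in siR_Ctrl cells (-0.42, adjusted p = 0.0306), kept in 8 and 5 of 12. Of 20 other autophagosome formation factors, 0 were called with IFN-γ in siR_Ctrl cells by edgeR, where 1 had an unadjusted p under 0.05, beside 14.6% of all genes. In siR_Nostrill cells 1 was called, Bcl2l11 (0.73, adjusted p = 0.0278, kept in 6 of 12), which encodes BIM.

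For the Nostrill siRNAs edgeR called 1 of these 119 genes without IFN-γ and 1 with it, beside 0.218% and 0.429% of all genes, and both times it was Ei24. The Ei24 result was known beforehand, and the lists were chosen with earlier results of these data known. These counts can therefore not be read as a result about the lists. The counts without and with IFN-γ were 3 and 13 in DESeq2 (beside 2.56% and 5.46%), 6 and 23 with the length trend removed (beside 3.39% and 12.9%), and 0 and 0 with only the groups compared, so Ei24 was not the only such gene in each setting. Ei24, an endoplasmic reticulum membrane protein needed late in autophagosome formation, was measured at 23.1, 22.3 and 22.1 FPKM in siR_Ctrl and at 34.4, 30.3 and 30.9 in siR_Nostrill libraries. With IFN-γ it was at 21.0, 18.5 and 18.9 against 39.2, 37.0 and 36.7. The groups were apart in both cases, with log2 fold changes of 0.53 (edgeR adjusted p = 0.0385) and 0.88 (adjusted p = 0.00588). The call without IFN-γ was kept in 2 of 12 fits that each left out 1 library, and that with IFN-γ in 10 of 12. Without IFN-γ it was also lost with the replicate number as a block and with no filter on low counts. The direction of Ei24 was opposite to that of Atg3 in the same libraries.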

How the data were processed

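IEC4.1 RNA was measured in 12 libraries, 3 per condition, grouped by the sample labels. The authors deposited an estimated count per gene, not normalized, with an FPKM and a TPM value. Per the labels, reads were aligned with HISAT or HISAT2, and the build named in the methods is GRCm38.p6. For the assignment of reads to genes, a tool was not given in the sources used here. Deposited TPM was used only for its ratio to FPKM per library (1.26 to 1.75), and FPKM for levels. Estimated counts, of which 90.6% to 91.6% were whole, were rounded and tested with edgeR 4.0.16 in R 4.3.3 (quasi-likelihood test, TMM, default filter on low counts, 4 groups in one fit, adjusted p threshold 0.05). Effective length is the read count divided by FPKM and library total, and length trends were removed by lowess (span 0.3) per library. Replicates differed by a chi-square per degree of freedom of 6.46 to 96.5. Scripts were tested on simulated counts. Alternatives were DESeq2 1.42.0 and its size factors, limma 3.58.1 on log2(FPKM + 1) or log2(FPKM + 0.1), other filters, only the groups compared, the replicate block, and each library left out. Normalised CPM is the count scaled to the TMM-adjusted library size. Members were named where called, where among the 3 smallest p of a comparison, where listed as autophagy markers (Map1lc3a, Map1lc3b, Becn1, Sqstm1), or where among the 5 highest or lowest in siR_Ctrl. Other members, such as Atg5, Atg7 and Atg16l1, were named after their values were seen. From each further list up to 4 called genes were named, and Ei24, whose result was known beforehand. The members and lists were chosen with earlier results of these data known. Protein sequences were not used here.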

Additional observations from a re-analysis of the deposited data

How the results depend on the processing

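Comparison 1 is IFN-γ in siR_Ctrl cells, 2 is IFN-γ in siR_Nostrill cells, 3 and 4 are the Nostrill siRNAs without and with IFN-γ, and 5 is the interaction. Counts follow this order. The counts reported are 0, 1, 0, 1 and 0 members, 649, 807, 26, 51 and 0 of all genes, and 6, 8, 1, 1 and 0 of the further lists. DESeq2 gave 3 members for comparison 2 and 2 for comparison 4, 1330, 265 and 596 genes for comparisons 2 to 4, and 14, 3 and 13 list genes. With only the groups compared, members were 3 and 0 for comparisons 2 and 4, genes 341, 1997, 0 and 0, and list genes 1, 16, 0 and 0. Length trend removal gave 3, 6, 1 and 3 members, 1322, 2257, 404 and 1540 genes, and 13, 27, 6 and 23 list genes. limma on log2(FPKM + 1) gave 3 list genes for comparison 1 and 2 for comparison 4, and 135 genes for comparison 4. With a pseudocount of 0.1 these were 3, 2 and 114. Over all genes limma gave 2 members for comparison 4, 17 and 118 genes for comparisons 3 and 4, and 1 and 2 list genes. With no filter, members were 0 for comparison 2, genes 30 for comparison 4 and list genes 0 for comparison 3. With at least 5 CPM comparison 4 had 105 genes and 3 list genes. At unadjusted p under 0.05 there were 1, 9, 3, 3 and 2 members, 1742, 2606, 1643, 1730 and 1277 genes, and 20, 33, 21, 22 and 14 list genes.

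Deviations of same-numbered libraries from their group means correlated with no common sign (r from -0.495 to 0.725). These deviations also hold the length trend of each library, so they cannot tell whether the numbers pair the samples. With the replicate number as a block, members called were 0, 1, 0, 0 and 0, comparison 4 had 32 genes, and comparison 3 had 0 list genes. Block and length removal together gave 4, 7, 1 and 3 members, 1442, 2659, 557, 1892 and 248 genes, and 13, 33, 7, 24 and 2 list genes. Leaving out each library gave 0 to 0, 0 to 1, 0 to 0, 0 to 1 and 0 to 0 members. Genes ranged from 489 to 589, 491 to 1138, 0 to 37, 0 to 72 and 0 to 0, and list genes from 2 to 6, 4 to 11, 0 to 1, 0 to 1 and 0 to 0. Without siR_Ctrl replicate 1 comparison 3 had 0 genes.

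Of the log2 fold changes of named members over these alternatives (leaving out a library counted by its lowest and highest value), 368 kept sign and side of the threshold, 15 newly passed it, 8 no longer did and 19 changed sign. For Becn1 in comparison 1 the value was 0.0016 at a mean of at least 5 CPM, and -0.07 to 0.08 with each library left out. For Sqstm1 in comparison 1 it was -0.03 with length removed, with and without the block, -0.05 in limma, and -0.05 to 0.07 with each library left out. In comparison 2, length removal without and with the block gave Map1lc3a 0.05 and 0.04 and Map1lc3b 0.0021 and 0.00039, and leaving out each library gave Map1lc3b -0.12 to 0.0022. For Sqstm1 in comparison 3 it was -0.08 with length removed, with and without the block, -0.0021 in limma, and -0.04 to 0.08 with each library left out. The cause was not tested. Scaling alternatives moved the median of all genes by 0.08 at most. Atg10, with as few as 45 reads in a library, has the fewest reads of the members.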

Other observations

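Lysosomal genes, which encode the organelle where autophagosomes end, were read as a further list of 32, of which 31 were tested. IFN-γ raised 1 of them in siR_Ctrl cells and 3 in siR_Nostrill cells in edgeR, and lowered 0 in either, beside 5.45% and 6.78% of all genes called. Scarb2, the receptor that carries glucocerebrosidase to lysosomes, was called in both, with log2 fold changes of 0.34 (edgeR adjusted p = 0.0139, kept in 8 of 12 fits that each left out 1 library) and 0.59 (adjusted p = 0.000205, kept in 12). Lamp2, a lysosomal membrane protein, was measured at 108, 91.7 and 113 FPKM in siR_Nostrill and at 173, 166 and 159 in siR_Nostrill + IFN-γ libraries. The groups lay apart, with a log2 fold change of 0.65 (edgeR adjusted p = 0.00546). Gla, which encodes alpha-galactosidase A, had a log2 fold change of 0.33 (edgeR adjusted p = 0.0415), and its call was kept in 3 of 12. In the comparison of the Nostrill siRNAs with the control siRNA, edgeR called 0 of the 31 without IFN-γ and 0 with it, beside 0.218% and 0.429% of all genes. At an unadjusted p under 0.05 there were 4 and 8, beside 13.8% and 14.5% of all genes.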
